A study of Mus musculus with 2 samples.

Results

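The genes described here are 9 genes of antigen presentation. They are B2m, Tap1, Tap2, Tapbp, Tapbpl and Erap1, which build or fill MHC class I molecules, the MHC transactivators Nlrc5 and Ciita, and Cd74, the invariant chain of MHC class II. They were chosen by name, with earlier results of these data known, and matched by symbol in the deposited tables. All 9 were found, of 16902 genes listed in at least 1 library. RNA was sequenced from EpCAM-positive tumour cells of PyMT;Zeb1cKO mice, whose tumours are driven by the polyoma middle T oncogene and carry a conditional knockout of Zeb1, and from EpCAM-positive tumour cells of PyMT mice, which have the same oncogene without the knockout. The study asked which tumour cell signals lie between Zeb1 and M2-like polarisation of tumour-associated macrophages. The libraries are called the knockout library (PyMT;Zeb1cKO) and the PyMT library below. With 1 library for each genotype there is no replicate spread and no test, and an effect of genotype cannot be told apart from one of the individual tumour, mouse or preparation. The sources used here do not give age, strain, the Cre driver, the deleted part of Zeb1 or any pooling of animals.

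The knockout library held 21277484 estimated counts and the PyMT library 21580274. Zeb1, the targeted gene, had 38 counts in the knockout library and 96 in the PyMT library, and these counts cover the gene as a whole. Epcam and the other 7 epithelial markers were present in both libraries, with a summed level of 3072 FPKM in the knockout library and 5942 FPKM in the PyMT library. FPKM count fragments per kilobase of a gene and correct for library depth, so they compare levels between genes. Markers of leukocytes, macrophages, endothelium and fibroblasts were present too, and their values stand with the results they touch. In bulk RNA, fewer cells of a type and less RNA per cell cannot be told apart.

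MHC class I molecules show peptides made in the cytosol to CD8 T cells. The proteasome cuts the peptides, the TAP transporter carries them into the endoplasmic reticulum, and a loading complex built around tapasin places them on a heavy chain paired with beta-2 microglobulin. Nlrc5 switches on the genes of this class I pathway, while Ciita does so for MHC class II, whose peptide groove is guarded by the invariant chain Cd74 until it meets peptides in endosomes. In tumour epithelium the class I pathway is known as a target of interferon signalling and as a step at which tumours escape T cells.

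The class I light chain, both TAP subunits, tapasin and Nlrc5 were lower in the knockout library than in the PyMT library by 2-fold or more, whereas the tapasin relative Tapbpl and the trimming enzyme Erap1 were somewhat higher, and Ciita and Cd74 were close to equal. Of the 9 genes, 8 reached 1 FPKM in either library and were compared on the log2(FPKM + 1) scale, on which the pseudocount of 1 understates differences of low genes. Of these 8, 5 were lower by 2-fold or more in the knockout library, against 8.78% of the 12653 genes compared. None was at least 2-fold higher, against 10.2% of the genes compared. Since the genes were chosen with earlier results of these data known, these shares are a description and not a test. The median log2 ratio of the 8 genes was -1.15, beside 0.13 for all genes compared. Among the 2455 genes that reached 50 FPKM in either library, 11.5% were at least 2-fold lower. Together the 9 genes took 0.086% of the counts in the knockout library and 0.222% in the PyMT library.

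**Figure D1:**
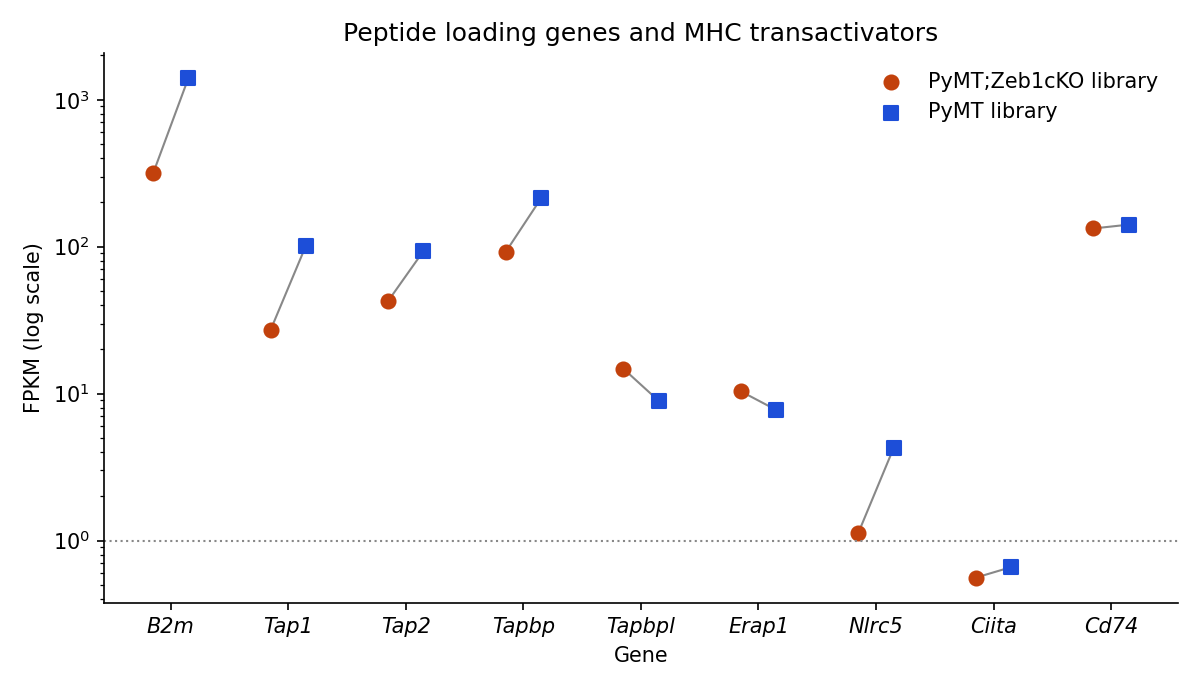
Level of each gene (FPKM, log scale) in the PyMT;Zeb1cKO library (circles) and the PyMT library (squares), 1 library each, with the dotted line at an FPKM of 1. B2m, Tap1, Tap2, Tapbp and Nlrc5 sit lower in the PyMT;Zeb1cKO library, Tapbpl and Erap1 slightly higher, and Cd74 is at 133 FPKM in the PyMT;Zeb1cKO library and 141 FPKM in the PyMT library.

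The order of the levels was similar in both libraries, with B2m at the top and Nlrc5 and Ciita at the bottom. B2m ranked 267th among all genes by FPKM in the knockout library and 81st in the PyMT library. Cd74 came next in the knockout library, followed by Tapbp, Tap2 and Tap1, whereas in the PyMT library Tapbp stood above Cd74 and Tap1 above Tap2. Tapbpl, Erap1, Nlrc5 and Ciita followed in that order in both. Ciita was the gene below 1 FPKM in both libraries.

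B2m encodes beta-2 microglobulin, the light chain shared by all classical class I molecules. The gene (Entrez 12010) lies on chromosome 2 from 122147686 to 122153083 on the plus strand (GENCODE, GRCm38). It had 4603 counts and 316 FPKM in the knockout library, against 20284 counts and 1406 FPKM in the PyMT library. The count ratio was 0.230 (95% counting interval 0.223 to 0.238), and its log2 ratio of -2.15 was the 204th lowest of the 12653 genes. This interval, like those that follow, is exact and covers counting error only, not differences between animals. Patl2, annotated across the same span on the opposite strand, is not analysed here. B2m was the most abundant of the 9 genes and the one with the lowest ratio.

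The heavy chains that pair with B2m were lower too. Of 14 class I heavy chain genes, 11 were compared, and 10 of these were at least 2-fold lower. The median log2 ratio of the 11 was -1.75. Among them H2-T22 was at 1.24 FPKM in the knockout library and 69.2 FPKM in the PyMT library, and H2-Q7 at 12.6 FPKM in the knockout library and 175 FPKM in the PyMT library. H2-Q2, the member with the highest log2 ratio, was at 2.18 FPKM in the knockout library and 5.29 FPKM in the PyMT library. On counts its ratio was 0.419 (0.287 to 0.604), past 2-fold. H2-T10, past 2-fold on FPKM, was within 2-fold on counts, with a ratio of 0.687 (0.648 to 0.728). Its mean transcript length was 2771.86 bases in the knockout library and 1638.14 bases in the PyMT library. Of the 11, 10 had estimated counts that are not whole, as arise where reads fit several near-identical genes, so their single ratios are uncertain. The strain of the mice is not given. Whether alleles of the MHC region that differ from the mm10 build changed these counts was not tested. The same holds for Tap1, Tap2, Tapbp, Psmb8 and H2-Eb1 below, which lie in that region. H2-M3, a non-classical heavy chain with whole counts, had 72 counts in the knockout library and 189 in the PyMT library. Summed over all 13 heavy chain genes found, the level was 1527 FPKM in the knockout library and 6141 FPKM in the PyMT library. B2m per heavy chain was 0.207 in the knockout library and 0.229 in the PyMT library on the FPKM scale. This ratio within a library does not depend on how the libraries are scaled, and on counts it was 0.896 times as high in the knockout library (0.867 to 0.927).

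Most epithelial markers were lower in the knockout library but within 2-fold. Their median log2 ratio was -0.77, beside 0.13 for all genes compared. Of 8, 2 were at least 2-fold lower, Krt18 (712 FPKM in the knockout library and 1836 FPKM in the PyMT library) and Cldn7 (179 FPKM in the knockout library and 359.99 FPKM in the PyMT library). Krt8, a luminal keratin and the epithelial marker with the highest FPKM in the knockout library, was at 830 FPKM in the knockout library and 1584 FPKM in the PyMT library. Ehf, an epithelial transcription factor and the only one of the 8 that was not lower, was at 86.3 FPKM in the knockout library and 80.0 FPKM in the PyMT library. B2m per Krt8 was 0.381 in the knockout library and 0.887 in the PyMT library, a difference of 0.435 times on counts (0.420 to 0.450). B2m per Epcam was 0.659 in the knockout library and 1.90 in the PyMT library, so B2m was lower relative to Krt8 and to Epcam. B2m is also made by leukocytes, and the 8 pan-leukocyte markers summed to 117 FPKM in the knockout library and 121 FPKM in the PyMT library, none past 2-fold on the log2(FPKM + 1) scale. Single markers went both ways. Cytip was at 2.98 FPKM in the knockout library and 6.93 FPKM in the PyMT library, past 2-fold on counts with a ratio of 0.432 (0.380 to 0.490). Cd53 had a count ratio of 0.548 and Ikzf1 one of 1.64. Most neutrophil markers were lower, with 5 of 6 compared at least 2-fold lower. Their sum was 98.4 FPKM in the knockout library against 555 FPKM in the PyMT library. Ltf alone gave 81.2 FPKM of this in the knockout library and 281 FPKM in the PyMT library. Csf3r, the compared marker within 2-fold, had 91 counts in the knockout library and 103 in the PyMT library, a ratio of 0.896 (0.668 to 1.20). Which cells made the RNA of Ltf and the other neutrophil markers was not tested, nor was the part of neutrophil RNA in these ratios.

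**Figure D2:**
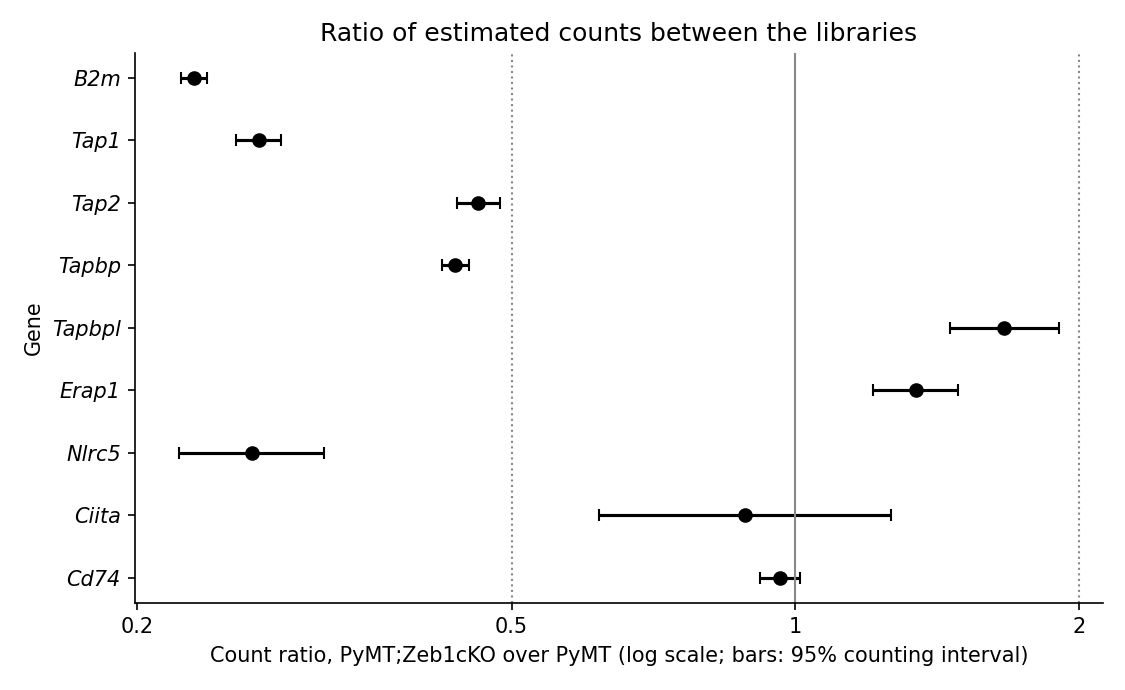
Ratio of estimated counts, PyMT;Zeb1cKO over PyMT, each scaled to its library total, on a log axis. Bars are exact 95% counting intervals from 1 library per genotype. Dotted lines mark 2-fold either way. B2m, Tap1, Nlrc5, Tapbp and Tap2 lie below 0.5, and the intervals of Ciita and Cd74 include 1.

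Tap1 and Tap2 encode the subunits that pair to form the TAP peptide transporter. Tap1 (Entrez 21354, chromosome 17, 34187553 to 34197225, plus strand) had 1608 counts and 27.2 FPKM in the knockout library, against 6052 counts and 102 FPKM in the PyMT library. Its ratio was 0.269 (0.255 to 0.285) and its log2 ratio -1.86. Tap2 (Entrez 21355, chromosome 17, 34203527 to 34216321, plus strand) had 2109 counts and 42.8 FPKM in the knockout library, against 4640 counts and 93.5 FPKM in the PyMT library. Its count ratio was 0.461 (0.438 to 0.485) and its log2 ratio -1.11, which places it close to the 2-fold limit. Both subunits were lower, Tap1 by more than Tap2.

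The balance between the TAP subunits therefore differed between the libraries. Tap1 per Tap2 was 0.636 in the knockout library and 1.09 in the PyMT library on the FPKM scale, and on counts the ratio was 0.585 times as high in the knockout library (0.542 to 0.631). B2m per Tap1 was closer between the libraries, at 11.6 in the knockout library and 13.8 in the PyMT library. Abcb9, a lysosomal peptide transporter of the same ABC subfamily, went the other way, with 53.1 FPKM in the knockout library and 10.4 FPKM in the PyMT library, a count ratio of 4.84. Tap1 per Abcb9 was 0.513 in the knockout library and 9.75 in the PyMT library.

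Tapbp encodes tapasin, which bridges TAP and the heavy chain and favours tightly bound peptides. Tapbp (Entrez 21356, chromosome 17, 33915899 to 33929292, plus strand) had 5132 estimated counts and 92.2 FPKM in the knockout library, against 11947 estimated counts and 213 FPKM in the PyMT library. The ratio of its counts was 0.436 (0.422 to 0.450) and its log2 ratio -1.20. Zbtb22, on the same strand, shares 3422 bases with the gene span of Tapbp and was at 28.0 FPKM in the knockout library and 43.1 FPKM in the PyMT library. Tap2 per Tapbp was near equal, at 0.464 in the knockout library and 0.439 in the PyMT library. On counts that was a ratio of 1.06 with an interval of 0.995 to 1.13.

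Tapbpl encodes TAPBPR, a tapasin relative that edits peptides outside the loading complex. Tapbpl (Entrez 213233, chromosome 6, 125223933 to 125231860, minus strand) had 599.95 estimated counts and 14.8 FPKM in the knockout library, against 364.8 estimated counts and 8.94 FPKM in the PyMT library. Its count ratio was 1.67 (1.46 to 1.90) and its log2 ratio 0.67, within 2-fold. Tapbp per Tapbpl was 6.24 in the knockout library and 23.8 in the PyMT library, a difference of 0.261 times on counts (0.228 to 0.299). Tapasin was the more abundant of the related editors in both libraries, by a smaller margin in the knockout library. Tapbp and Tapbpl had counts that are not whole, so their ratios are uncertain. Vamp1 overlaps the gene span of Tapbpl on the opposite strand and was at 11.8 FPKM in the knockout library and 13.4 FPKM in the PyMT library. Overlap of their exons was not measured. Reads from any shared exon bases cannot be told apart if the counting did not use strand, and the sources used here do not say whether it did.

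Erap1 encodes the aminopeptidase of the endoplasmic reticulum that trims peptides to the length class I molecules hold. Erap1 (Entrez 80898, chromosome 13, 74639568 to 74693201, plus strand) had 847 counts and 10.4 FPKM in the knockout library, against 640 counts and 7.75 FPKM in the PyMT library. This gave a count ratio of 1.34 (1.21 to 1.49) and its log2 ratio 0.38, and 64.7% of the genes compared had a lower log2 ratio. Set against the median of all genes, the log2 ratio was 0.25 for Erap1 and 0.54 for Tapbpl. B2m per Erap1 was 30.5 in the knockout library and 181 in the PyMT library. Cast, on the opposite strand, shares 834 bases with the gene span of Erap1. Its level was 20.2 FPKM in the knockout library and 29.1 FPKM in the PyMT library, and the strand limit given for Vamp1 holds here too.

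Nlrc5 encodes the NOD-like receptor family member that acts as the class I transactivator. Nlrc5 (Entrez 434341, chromosome 8, 94434356 to 94527272, plus strand) had 163 counts and 1.13 FPKM in the knockout library, against 623 counts and 4.27 FPKM in the PyMT library. Its count ratio was 0.265 (0.222 to 0.316). Its log2 ratio was -1.31, and with a pseudocount of 0.1 it was -1.83. On counts Nlrc5 per B2m was 1.15 times as high in the knockout library (0.961 to 1.38) and Nlrc5 per Tap1 0.985 times (0.816 to 1.18), so neither balance differed beyond counting error. A long non-coding RNA on the opposite strand of Nlrc5, 9330175E14Rik, was at 0.12 FPKM in the knockout library and 1.65 FPKM in the PyMT library, and shares 748 bases with the gene span of Nlrc5.

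Ciita encodes the master regulator of class II genes, made mainly by professional antigen-presenting cells and, after interferon gamma, by many others. Ciita (Entrez 12265, chromosome 16, 10480059 to 10528418, plus strand) had 62 counts and 0.56 FPKM in the knockout library, against 71 counts and 0.66 FPKM in the PyMT library. Its count ratio was 0.886 (0.620 to 1.26), so no difference was detectable at this depth, and the interval leaves room for a ratio as low as 0.620. Nlrc5 per Ciita was 2.02 in the knockout library and 6.47 in the PyMT library, a difference of 0.300 times on counts (0.201 to 0.448). Dexi, on the opposite strand, shares 25888 bases with the gene span of Ciita and was at 36.5 FPKM in the knockout library and 33.1 FPKM in the PyMT library. Overlap of exons was not measured here either, and the sources used here do not say whether the counting used strand.

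Cd74 encodes the invariant chain, which escorts class II molecules to endosomes and is also the receptor of the cytokine MIF. Cd74 (Entrez 16149, chromosome 18, 60803848 to 60812652, plus strand) had 3167 counts and 133 FPKM in the knockout library, against 3333 counts and 141 FPKM in the PyMT library. This was a count ratio of 0.964 (0.918 to 1.01) and its log2 ratio -0.09. Of 9 class II chain and exchange factor genes, 6 were compared and 1 of these, H2-Eb1, was at least 2-fold lower, with 13 counts in the knockout library and 659 in the PyMT library. H2-Aa, the class II alpha chain, was at 51.1 FPKM in the knockout library and 58.0 FPKM in the PyMT library, and Cd74 per H2-Aa was 2.61 in the knockout library and 2.44 in the PyMT library. The proteases and other factors that process the invariant chain gave 2 of 7 compared at least 2-fold lower, Lgmn at 51.9 FPKM in the knockout library and 159 FPKM in the PyMT library, and Ctsl at 40.6 FPKM in the knockout library and 111 FPKM in the PyMT library. Ctss, the protease that makes the last cuts in the invariant chain, was at 71.2 FPKM in the knockout library and 97.9 FPKM in the PyMT library.

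Markers of the professional antigen-presenting cells were uneven in level. Cd74 is abundant in macrophages, B cells and dendritic cells. The 8 macrophage markers summed to 435 FPKM in the knockout library and 544 FPKM in the PyMT library, none past 2-fold, with C1qb at 126 FPKM in the knockout library and 118 FPKM in the PyMT library. C1qa was at 105 FPKM in the knockout library and 148 FPKM in the PyMT library. The 8 dendritic cell markers summed to 4.83 FPKM in the knockout library and 5.73 FPKM in the PyMT library, of which 2 were compared and 1, Zbtb46, was at least 2-fold lower. Of 8 B cell markers, 6 were found, with a summed level of 1.31 FPKM in the knockout library and 0.88 FPKM in the PyMT library, none high enough to be compared. Among them Blk was at 0 counts in the knockout library. Cd74 per Ptprc, the pan-leukocyte surface phosphatase, was 120 in the knockout library and 130 in the PyMT library, on counts a ratio of 0.934 (0.714 to 1.22). T and NK cell markers summed to 4.87 FPKM in the knockout library and 4.40 FPKM in the PyMT library, with 0 of 3 compared past 2-fold. Endothelial markers summed to 49.3 FPKM in the knockout library and 73.9 FPKM in the PyMT library, with 0 of 7 past 2-fold, and fibroblast markers to 635 FPKM in the knockout library and 511 FPKM in the PyMT library, with 1 of 7 at least 2-fold higher. The share of Cd74 and Ciita reads that came from macrophages was not tested.

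**Figure D3:**
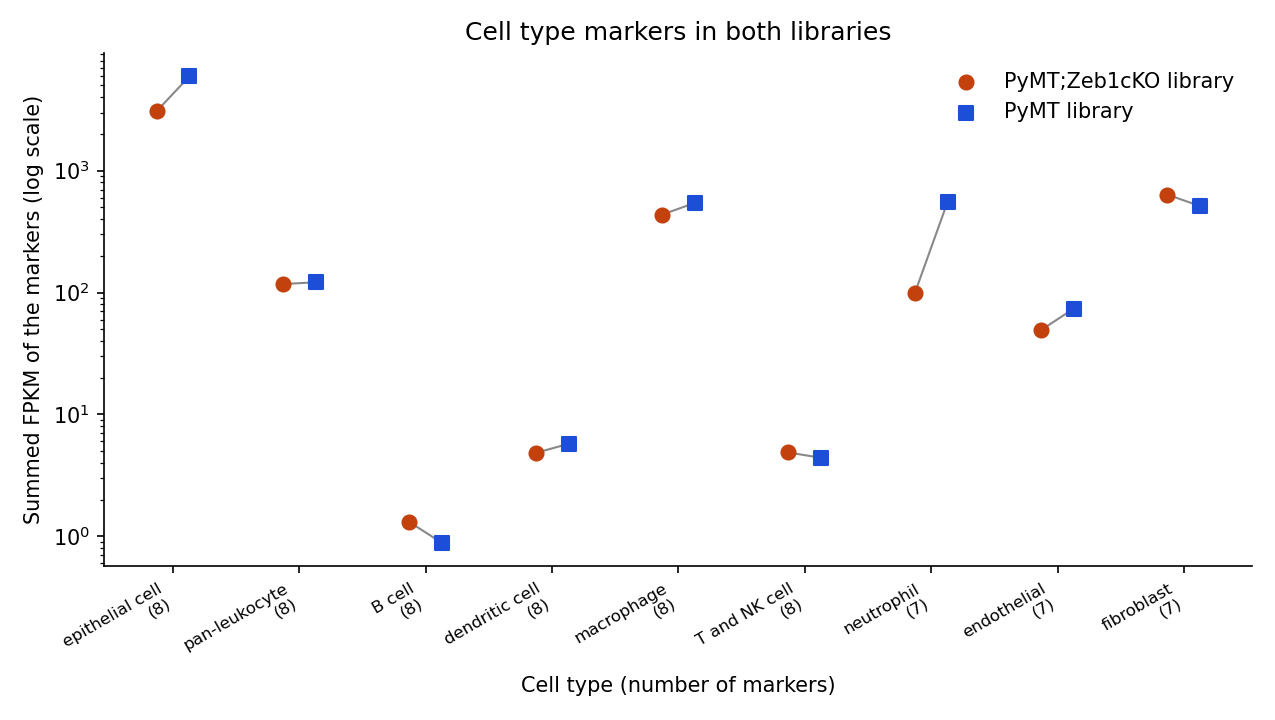
Summed FPKM (log scale) of the markers of each cell type in the PyMT;Zeb1cKO library (circles) and the PyMT library (squares), with the number of markers in parentheses. Neutrophil markers differ most (98.4 FPKM in the PyMT;Zeb1cKO library, 555 FPKM in the PyMT library), and the pan-leukocyte sums are close (117 FPKM in the PyMT;Zeb1cKO library, 121 FPKM in the PyMT library).

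Several of the 9 genes have more than 1 transcript, and the deposited mean transcript length shows their mix. The mean length of Cd74, which has 2 transcripts, was 1292.73 bases in the knockout library and 1282.73 bases in the PyMT library. For Ciita, with 5 transcripts that include forms from separate promoters, it was 5332.94 bases in the knockout library and 5167 bases in the PyMT library, resting on the low counts above. The mean lengths of Tap1 (2949.29 bases in the knockout library and 2944.96 in the PyMT library) and Tapbp (2788.64 bases in the knockout library and 2787.24 in the PyMT library) were nearly the same. The transcripts themselves have no counts of their own in these tables.

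Promoter sequence was read for the 4 genes of the set with a window in the RefSeq table (GRCm38.p6), B2m, Tap1, Tapbp and Erap1. Each window runs from 250 bases before to 50 after the transcript start that this table uses. For Tapbp and Erap1 that start lies after the GENCODE gene start given above, so both windows lie within the GENCODE gene span. All windows available for the set are shown, since regulators of class I genes are known to bind this close to the start. The first 3 of the 4 genes were lower in the knockout library and Erap1 was not. Capitals mark matches on either strand to 2 GAAA blocks with 2 bases between them (the core of the interferon-stimulated response element), TTCNNNGAA (the gamma-activated site), CCAAT (the core of the Y box bound by NF-Y) and TGACG (the core of the X2 element of the X box). The windows are chr2:122147437-122147736 (+) for B2m, chr17:34187306-34187605 (+) for Tap1, chr17:33919228-33919527 (+) for Tapbp and chr13:74639603-74639902 (+) for Erap1.
B2m: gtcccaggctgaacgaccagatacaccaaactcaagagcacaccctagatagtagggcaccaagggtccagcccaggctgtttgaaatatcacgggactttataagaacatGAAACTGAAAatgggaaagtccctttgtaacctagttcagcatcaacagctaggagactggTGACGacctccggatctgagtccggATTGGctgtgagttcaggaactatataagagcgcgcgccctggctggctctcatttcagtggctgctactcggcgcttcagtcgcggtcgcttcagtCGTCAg
Tap1: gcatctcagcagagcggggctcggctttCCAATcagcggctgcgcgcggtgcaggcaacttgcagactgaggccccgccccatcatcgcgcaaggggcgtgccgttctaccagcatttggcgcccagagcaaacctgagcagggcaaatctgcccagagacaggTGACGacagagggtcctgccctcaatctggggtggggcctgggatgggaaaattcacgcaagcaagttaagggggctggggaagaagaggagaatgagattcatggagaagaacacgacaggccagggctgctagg
Tapbp: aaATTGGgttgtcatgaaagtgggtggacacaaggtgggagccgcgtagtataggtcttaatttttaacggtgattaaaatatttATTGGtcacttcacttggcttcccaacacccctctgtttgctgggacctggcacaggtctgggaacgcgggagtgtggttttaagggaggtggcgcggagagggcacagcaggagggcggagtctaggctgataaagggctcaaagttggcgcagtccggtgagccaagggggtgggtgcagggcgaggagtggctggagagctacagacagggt
Erap1: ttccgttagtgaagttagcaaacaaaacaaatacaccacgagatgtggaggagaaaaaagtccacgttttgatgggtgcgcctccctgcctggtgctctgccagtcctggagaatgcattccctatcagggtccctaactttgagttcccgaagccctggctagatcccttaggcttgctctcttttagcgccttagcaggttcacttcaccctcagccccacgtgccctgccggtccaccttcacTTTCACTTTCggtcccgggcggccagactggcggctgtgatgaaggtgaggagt

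The interferon-type core was found in the B2m window, 139 to 130 bases before the start, and in the Erap1 window, where it spans the start itself. Of all 32851 promoter windows of 300 bases, 3.44% hold it. Erap1 had a count ratio of 1.34 and B2m one of 0.230, and any part of this core in these ratios was not tested. CCAAT was found in B2m, Tap1 and Tapbp, as in 37.4% of all windows, and TGACG in B2m and Tap1, as in 20.8% of all windows. In B2m the first TGACG and the reverse CCAAT begin at -78 and -53 relative to the start, the order of the X and Y boxes known from MHC promoters. In Tap1 the order is the reverse, with CCAAT at -222 and TGACG at -86. TTCNNNGAA, held by 8.3% of windows, was found in 0 of the 4. GGG and CC with 5 bases between them, an NF-kB type motif that is left in lower case since 50.8% of windows hold it, was found in B2m and Tap1. No match overlapped a match to another motif. A match is a description of the letters and not evidence of binding.

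Tapbp, Tap1 and Tap2 lie within 300.4 kb of the major histocompatibility complex on chromosome 17, with Tap1 and Tap2 beside the immunoproteasome genes Psmb9 and Psmb8. Of 35 protein-coding genes from 100 kb before Tapbp to 150 kb after Tap2, 30 were compared, and 7 of these were at least 2-fold lower, 1 higher and 22 within 2-fold. Without Tapbp, Tap1 and Tap2, 4 of 27 were at least 2-fold lower, or 14.8%, beside 8.78% of all genes. These 4 were Rps18, H2-K1, Psmb8 and H2-Eb1. Of them, Rps18 and H2-K1 had counts that are not whole, so their ratios are uncertain. Rps18 and H2-K1 lie between Tapbp and Tap1, and Psmb8 lies between Tap1 and Tap2. Among the 22 genes within 2-fold was Daxx next to Tapbp (27.1 FPKM in the knockout library and 35.6 FPKM in the PyMT library). Another was Brd2 between Tapbp and Tap1 (91.0 FPKM in the knockout library and 77.5 FPKM in the PyMT library). Daxx, Brd2, Rps18 and Kifc1 were named after their values were seen.

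Tap1 and Psmb9 lie on opposite strands with annotated starts 211 bases apart. In GENCODE their gene spans share 212 bases at these starts. Reads from any exon bases shared there cannot be told apart if the counting did not use strand. Their RefSeq promoter windows share 275 of 300 bases. Psmb9, an immunoproteasome subunit, had 605 counts in the knockout library and 767 in the PyMT library, a count ratio of 0.800 (0.718 to 0.891), against the 0.269 of Tap1. Psmb9 per Tap1 was 1.65 in the knockout library and 0.566 in the PyMT library, a difference of 2.97 times on counts (2.63 to 3.35). The genes of this shared region had unequal count ratios. Psmb8, on the other side of Tap1, had 3067 counts in the knockout library and 7105 in the PyMT library, a ratio of 0.438 (0.420 to 0.457), and Psmb8 per Tap2 was 3.23 in the knockout library and 3.43 in the PyMT library.

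**Figure D4:**
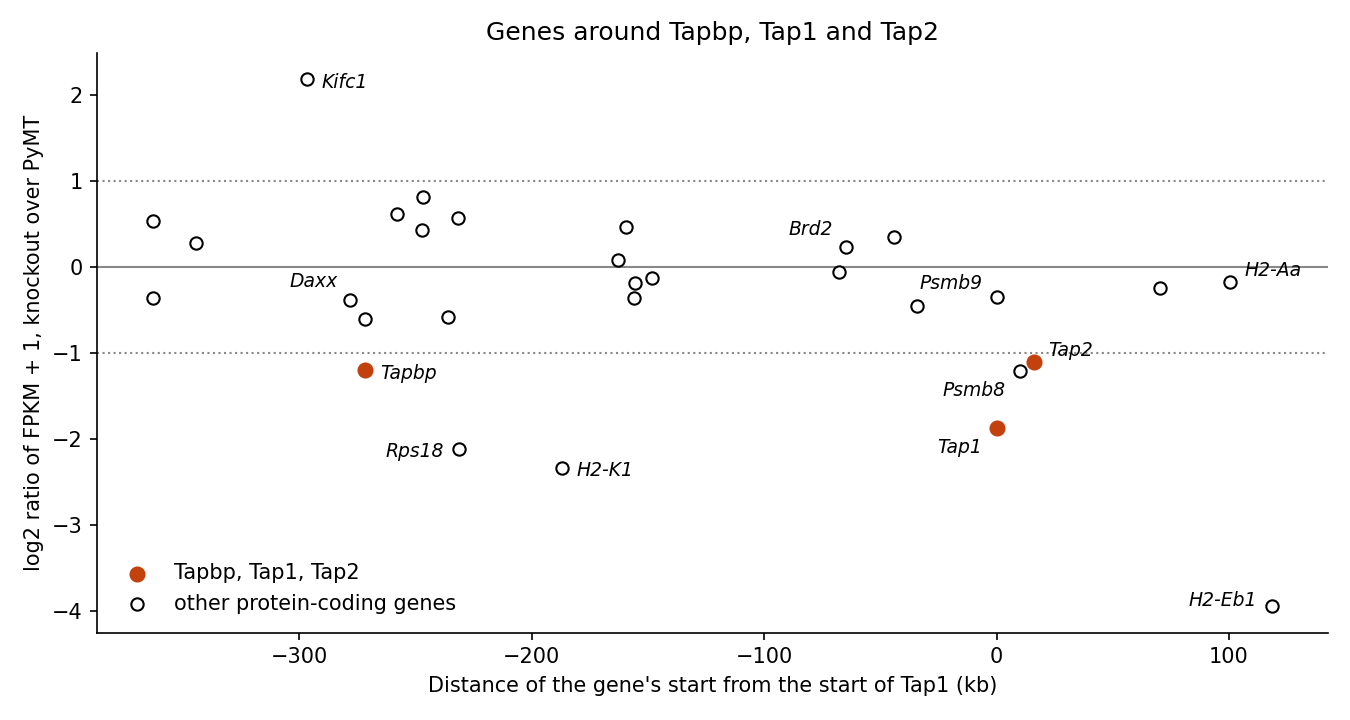
Log2 ratio of FPKM + 1, PyMT;Zeb1cKO over PyMT, for the 30 compared protein-coding genes around Tapbp, Tap1 and Tap2, by distance of each start from the start of Tap1 in kb. Dotted lines mark 2-fold. Filled points are Tapbp, Tap1 and Tap2. Psmb9 lies within 2-fold beside Tap1, H2-Eb1 is the lowest point and Kifc1 the highest.

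Apart from the heavy chains, genes that work beside the 9 in the same pathway were mostly within 2-fold. The general chaperones and glycan enzymes of the endoplasmic reticulum gave 0 of 10 past 2-fold in either direction, with a median log2 ratio of 0.01. Calr, the calreticulin of the loading complex, was at 473 FPKM in the knockout library and 449.9 FPKM in the PyMT library, and Pdia3, the ERp57 that is bound to tapasin, at 226 FPKM in the knockout library and 229 FPKM in the PyMT library. Tapbp per Calr was 0.195 in the knockout library and 0.474 in the PyMT library. Ganab and Canx had the highest log2 ratios of this list (0.75 and 0.47), and Hspa5 and Sec61a1 the lowest (-0.61 and -0.21). Calr and Pdia3 were named for their place in the loading complex, after their values were seen.

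Of 7 immunoproteasome and activator genes, 1 was at least 2-fold lower, Psmb8, and the median log2 ratio was -0.03. Pomp, a proteasome assembly factor, had the highest at 0.73. Psme3 followed at 0.48, and Psmb9 had the lowest after Psmb8, at -0.35. Of the peptidases and transporters of cytosolic and lysosomal peptides, 3 of 8 compared were at least 2-fold higher and 0 lower, with a median of 0.73. Besides Abcb9 these were Thop1, an oligopeptidase that destroys class I ligands in the cytosol, at 100.4 FPKM in the knockout library and 28.9 FPKM in the PyMT library, and Blmh, a bleomycin hydrolase that also trims peptides, at 64.1 FPKM in the knockout library and 31.3 FPKM in the PyMT library. The count was 2 with the median ratio, TPM and TMM scalings. Npepps (-0.20) and Lap3 (-0.11) had the lowest log2 ratios of that list.

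The X-Y box enhanceosome, the set of factors on which Nlrc5 and Ciita assemble, gave 0 of 8 past 2-fold, with a median log2 ratio of 0.30. Its highest members were the NF-Y subunits Nfya (0.76) and Nfyb (0.51), and its lowest Rfxap (-0.11) and Rfxank (0.16). Rfx5, the subunit that gives the complex its DNA contact at the X box, had a count ratio of 1.20. It was named after its value was seen. Of Nlrc5 and these 8 factors, Nlrc5 alone was past 2-fold.

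Of 16 interferon receptor and signalling genes, 1 was at least 2-fold lower and 0 higher, with a median log2 ratio of -0.28. That gene was Stat2, at 5.28 FPKM in the knockout library and 14.1 FPKM in the PyMT library. Irf9, its partner in the ISGF3 complex, followed at a log2 ratio of -0.97, and passed 2-fold with the median ratio, TPM and TMM scalings, which gave 2 genes. Irf2 (0.61) and Tyk2 (0.45) had the highest log2 ratios. Irf1, which drives class I genes after interferon gamma, was at 36.4 FPKM in the knockout library and 30.2 FPKM in the PyMT library. Irf1 was chosen for mention with its values known.

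**Figure D5:**
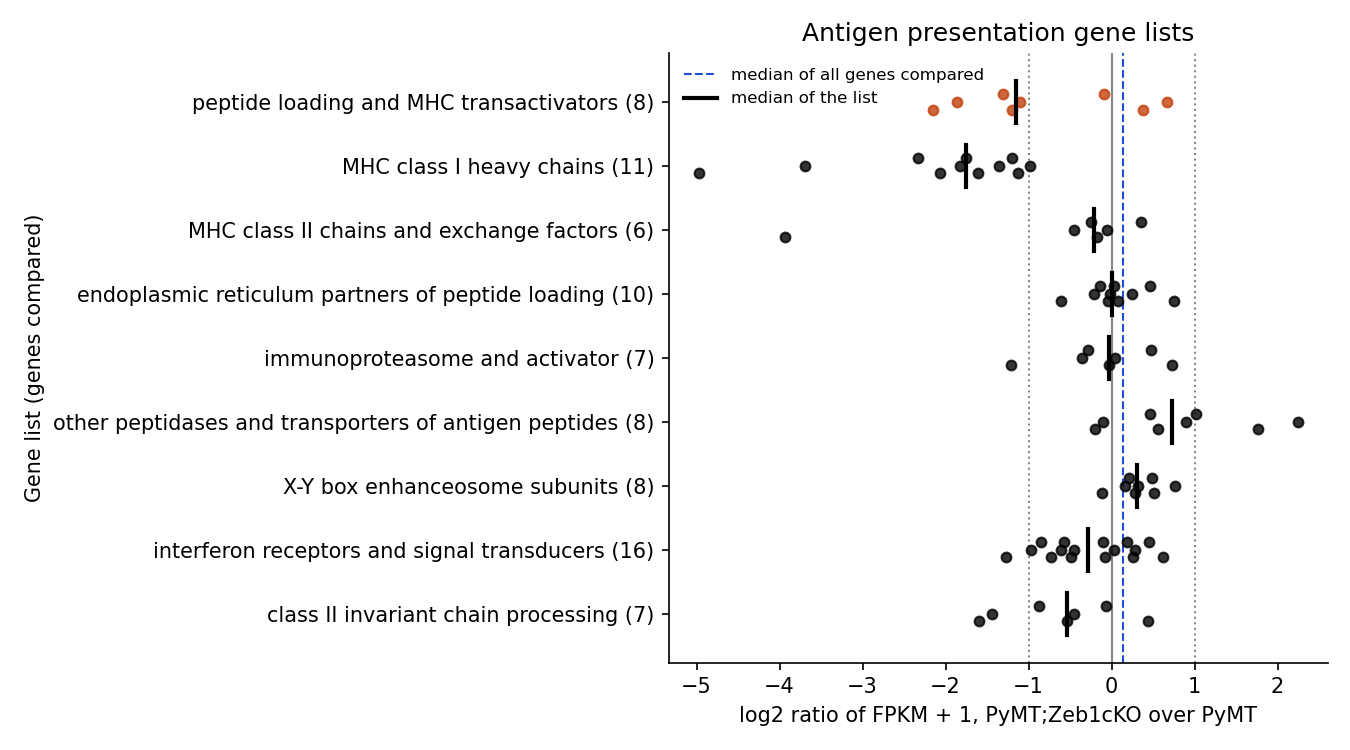
Log2 ratio of FPKM + 1, PyMT;Zeb1cKO over PyMT, of each compared gene in the antigen presentation lists, with the number compared in parentheses, the list median as a black bar, the median of all genes (0.13) as a dashed line and 2-fold as dotted lines. Class I heavy chains lie furthest to the left (median -1.75), followed by the peptide loading and transactivator genes (-1.15), while endoplasmic reticulum partners centre at 0.01.

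Of the 9 genes, Nlrc5 moved most under the 3 other scalings run, to a log2 ratio of -1.93 on the CPM scale with TMM factors, against -1.31 on FPKM. The pseudocount of 1 weighs less there, since the CPM of Nlrc5 are above its FPKM. Scaling by the median ratio took Nlrc5 to -1.39, and a pseudocount of 0.1 on FPKM took it to -1.83. With the FPKM as deposited, all genes compared had a median log2 ratio of 0.13, and scaling by the median ratio brought it close to 0, so members lay 0.13 lower relative to the median of all genes than their log2 ratios state. Of genes past 2-fold, 53.7% were higher in the knockout library as deposited and 41.9% after scaling by the median ratio. The sign of each of the 9 log2 ratios held under every scaling run, and a filter or a pseudocount cannot change it.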

How the data were processed

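RNA was measured in 2 libraries, 1 per genotype. The deposited tables give, per the file headers, an expected count (the name RSEM gives to its estimated counts), an FPKM value computed by the authors, and a mean transcript length per gene. Per the submitters' notes on processing, the mm10 build was used, and RSEM 1.2.8, Bowtie2 2.2.5, DESeq and HISAT2 2.1.0 are named with no stated role. Reads that fit several genes are shared out by such estimates, so genes with non-whole counts (tolerance 1e-09) have uncertain ratios. The tables list genes with a value above 0, and a gene missing from 1 table entered at 0.

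The 9 genes and all gene lists were chosen with earlier results of these data known. Log2 ratios are the log2 of FPKM plus a pseudocount of 1, knockout minus PyMT, for the genes that reached 1 FPKM in either library, and 2-fold is a rule of size. Count ratios use rounded counts per library total with exact (Clopper-Pearson) 95% intervals. Ratios of gene pairs between libraries have exact conditional 95% intervals. No test between genotypes was possible. Named genes were the 9 genes, the 2 highest and 2 lowest log2 ratios of each pathway list, and the marker of each cell type with the highest FPKM, of which not all are given. Any other gene is named after its values were seen, pairs included. Calculations were checked on simulated counts. Software was Python 3.11.15 with scipy 1.17.1, numpy 2.4.6, matplotlib 3.10.9 and pandas 2.3.3, and R 4.3.3 with edgeR 4.0.16 for TMM factors alone. Gene coordinates are from GENCODE M21. Some genes of these lists are not reported here.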

Additional observations from a re-analysis of the deposited data

How the results depend on the processing

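With 1 library per genotype, leaving out a replicate was not possible, and no paired analysis was possible because the groups share no second library. At 3-fold, 2 of the 8 compared genes were lower (B2m and Tap1), with 447 lower and 414 higher among all genes. At 1.5-fold, 1 was higher (Tapbpl), with 2183 lower and 3002 higher among all genes. The median log2 ratio of the 8 genes was -1.15 as deposited and -1.30 both with the median ratio and with TMM factors. The count of 5 genes at least 2-fold lower and of 0 higher held with a pseudocount of 0.1, TPM, the median ratio and TMM factors. Removing the filter could not change the count, since a gene below 1 FPKM in both libraries cannot reach 2-fold with a pseudocount of 1. The count was 4 lower and 0 higher both with the stricter filter, which drops Nlrc5, and without non-whole counts, which drops Tapbp and Tapbpl. Of 58 alternative log2 ratios of single genes, 14 moved beyond the counting interval, all 14 towards lower values, and 0 changed sign among those past 2-fold. The 58 include the filter settings, which leave the log2 ratio of a gene as it is, so only the scalings and the pseudocount could move one. Of 144 alternative list counts, 13 moved by over 1.5 times, 4 to lower and 9 to higher counts. Without non-whole counts, 1 class I heavy chain, H2-M3, was left among those lower. The depth limits Ciita most, with 62 counts in the knockout library and 71 in the PyMT library.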
